A study of Homo sapiens with 12 samples.

Results

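The Fc receptor-like genes were measured with 21 of the 54675 probe sets on the array, which stand for 7 of the 19775 genes named there (FCRL1, FCRL2, FCRL3, FCRL4, FCRL5, FCRLA and FCRLB). Every probe set annotated with one of these symbols alone was taken, which gave 5 for FCRL2, 5 for FCRL5, 3 for FCRLA, 3 for FCRL4, 2 for FCRL1, 2 for FCRL3 and 1 for FCRLB. The family was chosen by its log2 differences between groups in these same arrays, so the differences below are given as a description with their errors, and no p-value is given for a member.

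The arrays measured RNA of H929, an established line of multiple myeloma, a malignancy of plasma cells. There were 4 groups of 3 arrays: H929 cells infected with a hairpin RNA against BCL9 (shBCL9) or against green fluorescent protein (shGFP), both sorted by flow cytometry for green fluorescence, and H929 cells transfected with miR-30 (hsa-miR-30a, b, c, d and e by the labels, which do not say whether as a mixture) or with the worm microRNA cel-miR-67 as control, with no sorting given in their labels. BCL9 is a partner of beta-catenin in the Wnt pathway, and the series title names miR-30-5p as acting on BCL9. All groups are the same cell line, the hairpin's sequence is not given in the labels, and nothing in the labels says that replicates were grown separately, so the spread between them may be technical.

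Fc receptor-like proteins belong to the immunoglobulin superfamily and are relatives of the classical Fc receptors, which bind the constant part of antibodies. FCRL1 to FCRL5 are surface proteins found mainly on B-lineage cells, and their intracellular tails carry activating (ITAM-like) or inhibitory (ITIM) tyrosine motifs that tune signals from the B cell receptor. FCRLA and FCRLB lack a membrane anchor and stay inside the cell. FCRL5 is found on normal and malignant plasma cells and is a target of antibody therapies in myeloma.

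All 7 genes lie on chromosome 1, FCRL1 to FCRL5 side by side and FCRLA and FCRLB in a second block beside the classical Fc gamma receptor genes. The promoters of FCRL5, FCRL2, FCRL3 and FCRLA are shown because these 4 genes held all the member differences of over 2-fold. Each runs 5′ to 3′ over 250 bases before and 50 bases after the RefSeq gene start (assembly GRCh38.p14), at chr1:157552466-157552765 (minus strand) for FCRL5, chr1:157777083-157777382 (minus strand) for FCRL2, chr1:157700720-157701019 (minus strand) for FCRL3 and chr1:161706979-161707278 (plus strand) for FCRLA. Capitals mark matches, on either strand, to ACTTCC (ETS factors), CTTTGAT or CTTTGAA (TCF/LEF factors, the DNA-bound partners of beta-catenin), ATTTGCAT (the octamer of OCT factors) and CAGCTG (an E box). The motifs were chosen after the sequences had been seen.
FCRL5: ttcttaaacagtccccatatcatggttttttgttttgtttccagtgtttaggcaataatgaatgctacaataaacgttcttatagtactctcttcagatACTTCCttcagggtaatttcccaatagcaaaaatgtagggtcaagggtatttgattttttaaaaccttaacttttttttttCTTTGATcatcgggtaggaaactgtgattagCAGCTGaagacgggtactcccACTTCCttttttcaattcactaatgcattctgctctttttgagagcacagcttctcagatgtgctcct
FCRL2: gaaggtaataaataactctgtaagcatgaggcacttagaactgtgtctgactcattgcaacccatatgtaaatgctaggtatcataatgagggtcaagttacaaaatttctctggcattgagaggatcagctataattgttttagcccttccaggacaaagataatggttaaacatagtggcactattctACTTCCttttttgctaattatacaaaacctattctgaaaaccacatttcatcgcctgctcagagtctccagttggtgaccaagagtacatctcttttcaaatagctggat
FCRL3: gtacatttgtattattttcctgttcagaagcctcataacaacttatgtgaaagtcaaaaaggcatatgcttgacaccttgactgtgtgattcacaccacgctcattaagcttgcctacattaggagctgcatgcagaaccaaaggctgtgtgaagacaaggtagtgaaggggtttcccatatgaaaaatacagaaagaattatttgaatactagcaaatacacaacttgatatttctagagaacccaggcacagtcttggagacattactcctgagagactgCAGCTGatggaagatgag
FCRLA: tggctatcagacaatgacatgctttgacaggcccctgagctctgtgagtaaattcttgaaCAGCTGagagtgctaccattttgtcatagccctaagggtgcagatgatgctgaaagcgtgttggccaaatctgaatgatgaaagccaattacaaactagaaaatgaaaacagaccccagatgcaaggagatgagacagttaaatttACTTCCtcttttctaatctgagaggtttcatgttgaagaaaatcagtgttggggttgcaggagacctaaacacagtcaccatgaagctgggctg

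The table of promoters held 9 entries for the members, 3 of them for FCRLB. ACTTCC was present in 5 of the 9 and in 22.8% of all 35116 promoters of this length. In FCRL5 it began 151 and 18 bases before the start, in FCRL2 60 bases before it and in FCRLA 44 bases before it. CTTTGAT was present in 2 of the 9, those of FCRL5 (70 bases before the start) and FCRL1, and in 2.62% of all promoters. CTTTGAA was present in 1 of the 9, that of FCRL1, where it overlaps an ACTTCC match, and in 4.43% of all. CAGCTG was present in 5 of the 9 and in 17.9% of all, and ATTTGCAT was present in 1 of the 9, an FCRLB entry, and in 1.77% of all. These matches describe the letters only.

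Values are log2 intensities on the RMA scale, so a difference of 1 is a 2-fold change, and levels are compared only within a probe set. Array medians lay between 5.46 and 5.53. A probe set was taken as above background when it exceeded the 40th percentile of its array (4.86 to 4.95) in at least 3 arrays, and 14 of the 21 member probe sets, from 5 genes, did so. None of the probe sets of FCRL1 and FCRL4 did, nor did 1555799_at of FCRL5 and 1553196_a_at of FCRL3. Some probe sets carry a suffix (_s_at, _x_at or _a_at) that marks sequence shared between transcripts or genes, so part of their signal may come from a relative.

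For plasma cell markers 20 of 21 probe sets lay above that background, beside 14 of 31 for B cell markers, 6 of 14 for T and NK cell markers, 1 of 12 for myeloid markers, 6 of 8 for erythroid markers and 8 of 26 for stromal and epithelial markers. Among mature B cell genes, all 4 probe sets of MS4A1 (CD20) stayed below it, both of PAX5 passed it, at means of 4.83 to 5.45, and 1 of 4 of CD22 passed it, at 6.18 to 6.43. The mean over the plasma cell markers was 10.04 to 10.05 in shBCL9 arrays and 9.95 to 10.01 in shGFP arrays, and 9.59 to 9.66 in miR-30 arrays and 9.60 to 9.63 in cel-miR-67 arrays. The probe set of BCL9 itself (204129_at) had 7.73, 7.61 and 7.85 in shBCL9 arrays, against 7.88, 7.90 and 7.88 in shGFP arrays, a difference of -0.15 ± 0.08 (SE) that did not pass limma's test (adjusted p = 0.162). It had 7.99, 8.05 and 7.83 in miR-30 arrays, against 7.82, 7.86 and 7.79 in cel-miR-67 arrays (0.14 ± 0.08, limma adjusted p = 0.48). The targeted RNA therefore does not check the labels, and every direction below rests on them.

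The comparison of shBCL9 with shGFP asks what changes when BCL9 is targeted. In shBCL9 cells FCRL5, FCRL2, FCRLA, FCRL3 and FCRLB were lower, with FCRL5 showing the largest differences of the family. Of the 21 member probe sets 15 were called (a limma adjusted p under 0.05 over all 54613 probe sets tested), all lower in shBCL9, and 12 of them differed by over 2-fold. Of all probe sets 23% were called in this comparison, 12.9% were called lower, and 1.08% were called and differed by over 2-fold. The 3 shBCL9 arrays did not overlap the 3 shGFP arrays in 15 members, beside 38.3% of all probe sets. The median member difference was -1.56, beside 0.04 over all probe sets, and nothing is read from these counts, since the members were taken with this comparison known.

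FCRL5, the IgG-binding receptor of plasma cells, had 5.23, 5.18 and 5.10 for 224404_s_at in shBCL9 arrays, against 8.95, 9.05 and 9.05 in shGFP arrays. The difference was -3.85 ± 0.07 (SE, 3 arrays per group; 95% interval -4.00 to -3.70), a level 14.4-fold lower in shBCL9 and the 10th lowest difference of the 54613. The second probe set, 231647_s_at, had 5.13, 5.49 and 5.12 in shBCL9 arrays, against 8.22, 8.59 and 9.01 in shGFP arrays, a difference of -3.36 ± 0.17 (SE). No array of one group reached the range of the other in either probe set. In 224406_s_at the levels were 7.11, 7.09 and 6.86 in shBCL9 arrays, against 9.13, 9.10 and 8.95 in shGFP arrays (-2.04 ± 0.08, SE), and in 224405_at they were 3.38, 3.55 and 3.45 in shBCL9 arrays, against 5.88, 5.86 and 5.94 in shGFP arrays (-2.43 ± 0.08, SE). The shBCL9 level of 224405_at lay below background, so its fold is limited by it. The fifth probe set, 1555799_at, was near background in all groups and differed by -0.18 ± 0.10 (SE), within overlapping ranges.

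FCRL2, a receptor of memory B cells with ITIM motifs, was lower in 4 of its 5 probe sets. The brightest, 1563674_at, had 8.37, 8.39 and 8.31 in shBCL9 arrays, against 10.69, 10.81 and 10.69 in shGFP arrays, and 221239_s_at had 7.43, 7.59 and 7.29 in shBCL9 arrays, against 9.75, 9.85 and 9.81 in shGFP arrays. Both differed by -2.37 (SE 0.06 for 1563674_at and 0.09 for 221239_s_at), with about 19.4% of the shGFP level left. The probe set 224193_s_at differed by -1.83 ± 0.06 (SE) and 224192_at by -1.64 ± 0.13 (SE), each with the 3 shBCL9 arrays below the 3 shGFP arrays. The fifth, 224194_at, had 5.90, 5.90 and 5.80 in shBCL9 arrays, against 6.04, 5.91 and 5.71 in shGFP arrays, and its difference of -0.02 (95% interval -0.20 to 0.16) lay within the spread. The probe sets of FCRL2 therefore did not all show the change, and the files do not say which transcripts each detects.

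FCRL3, a receptor whose promoter variants have been studied in autoimmune disease, had 4.89, 4.88 and 4.70 for 231093_at in shBCL9 arrays, against 6.21, 6.34 and 6.59 in shGFP arrays (-1.56 ± 0.13, SE). The groups did not overlap, and the shBCL9 arrays lay under background, so the fold is limited by it. Its other probe set, 1553196_a_at, stayed below background in all 12 arrays and differed by -0.04 ± 0.08 (SE).

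FCRLA, an intracellular protein that binds immunoglobulin in the endoplasmic reticulum, was lower in all 3 probe sets. The levels of 235372_at were 7.10, 6.83 and 7.03 in shBCL9 arrays, against 8.40, 8.23 and 8.37 in shGFP arrays (-1.35 ± 0.08, SE). Those of 235400_at were 6.15, 6.0 and 6.06 in shBCL9 arrays, against 7.65, 7.92 and 7.75 in shGFP arrays (-1.71 ± 0.08, SE). The third, 235401_s_at, had 4.32, 5.06 and 4.69 in shBCL9 arrays, against 6.55, 6.75 and 7.30 in shGFP arrays (-2.18 ± 0.20, SE). Of these shBCL9 arrays 1 lay above background, so this fold is limited by it. The groups stayed apart in each of the 3 probe sets, although 235401_s_at varied more between replicates.

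FCRLB, the relative of FCRLA with a similar lack of a membrane anchor, had 7.83, 7.80 and 7.55 in shBCL9 arrays, against 8.31, 8.19 and 8.28 in shGFP arrays (238452_at, -0.54 ± 0.08, SE), without overlap. FCRL1, an activating co-receptor of mature B cells, and FCRL4, an inhibitory receptor of memory B cells in tissues, stayed between 3.11 and 4.46 in the infected arm. The other FCRL4 probe sets differed by 0.18 ± 0.11 (224401_s_at) and -0.12 ± 0.11 (224403_at, SE). One probe set of each gene was called, with differences of -0.29 ± 0.08 (SE) for 243968_x_at of FCRL1 and -0.22 ± 0.07 (SE) for 224402_s_at of FCRL4. Both were below background, and both lost the call when single arrays were left out. The FCRL1 probe set lost it without shGFP 3, shBCL9 1 or shBCL9 3, with differences of -0.26, -0.25 and -0.29, and the FCRL4 probe set without shGFP 1, shGFP 2, shBCL9 1, shBCL9 3, miR-30 1 or any single cel-miR-67 array, with differences between -0.22 and -0.16. Leaving out shGFP 3 gave a call to the other FCRL1 probe set, 235982_at (-0.39, against -0.22 with all arrays).

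**Figure D1:**
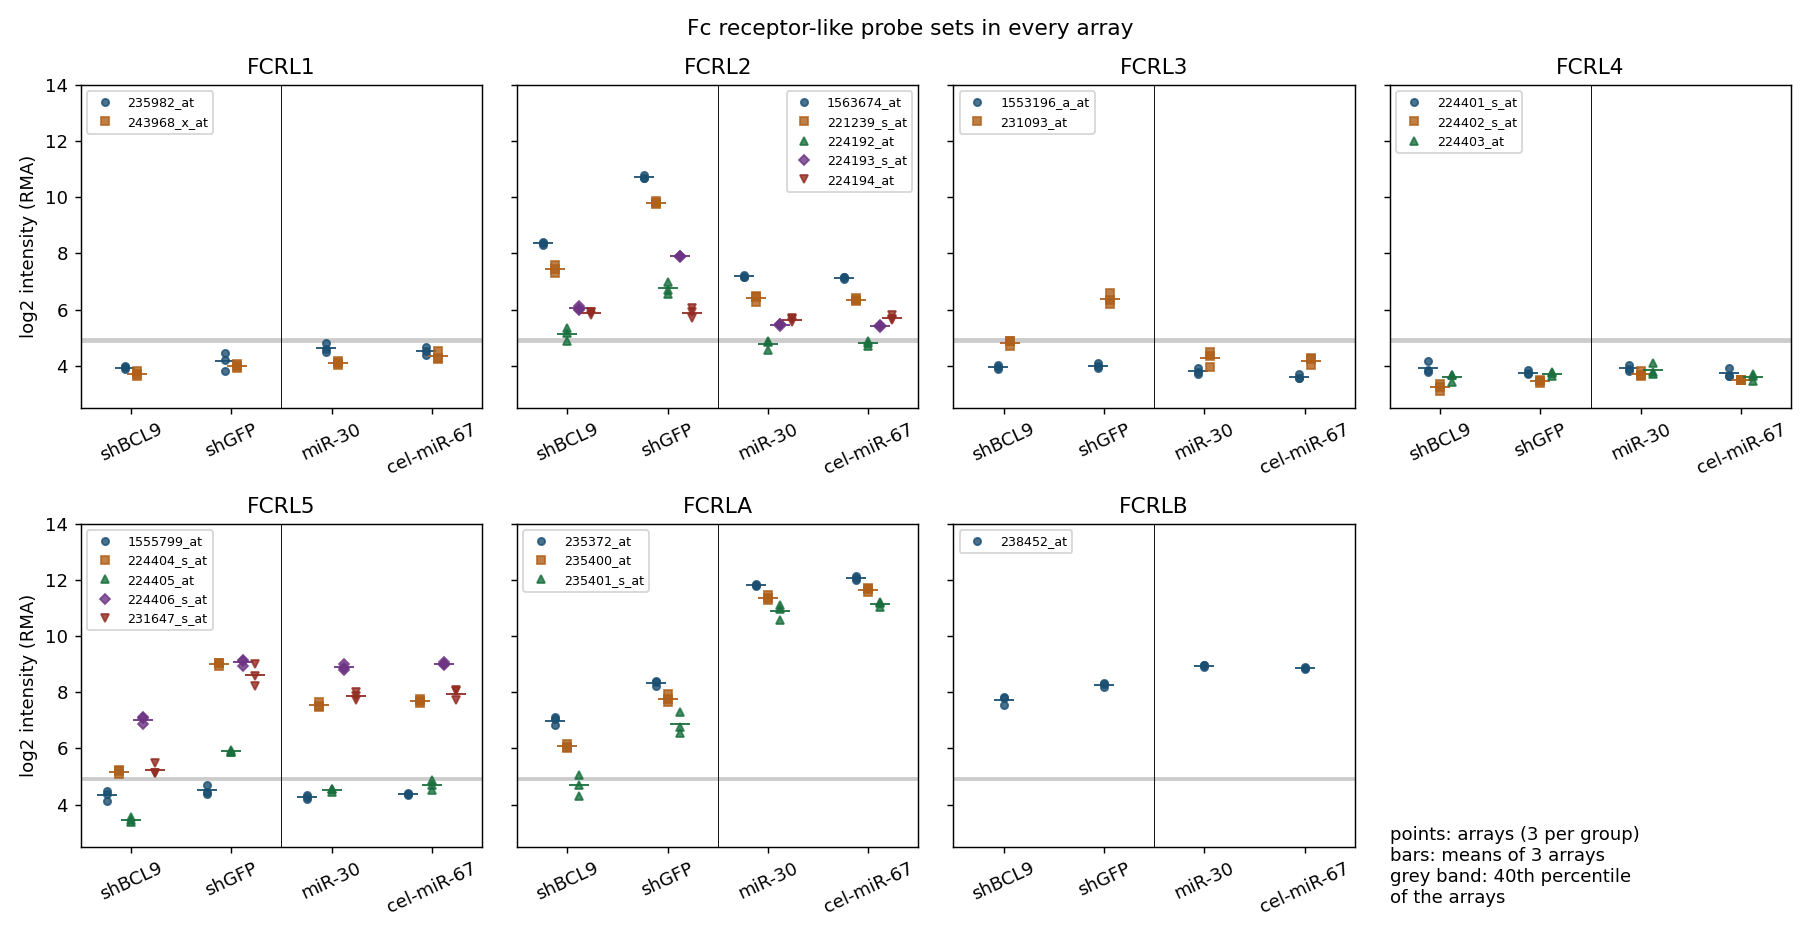
Levels (log2 intensity, RMA) of each member probe set in each of the 12 arrays, with one panel per gene and a bar at the mean of the 3 arrays of a group. The grey line marks the 40th percentile of the arrays (4.86 to 4.95), under which all FCRL1 and FCRL4 points lie. FCRL2 stands highest in shGFP, and FCRLA is far lower in the infected groups than in the transfected ones.

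Of 3 signals of RNA quality, 2 moved with this comparison. The 18S ribosomal RNA signal averaged 13.23 ± 0.02 in shBCL9 arrays, against 12.38 ± 0.07 in shGFP arrays (SD, n = 3 each), and was 12.64 ± 0.04 in miR-30 and 12.50 ± 0.05 in cel-miR-67 arrays. The log2 difference between the 3′ and 5′ probe sets of ACTB, a sign of RNA degradation, averaged 1.67 ± 0.08 in shBCL9 arrays, against 1.30 ± 0.11 in shGFP arrays. The same measure for GAPDH was 0.131 ± 0.0212 in shBCL9 arrays, against 0.136 ± 0.019 in shGFP arrays, within the spread. With the ACTB difference as a covariate, 12 of the 21 members were still called lower, beside 7.58% of all probe sets, and FCRLB (-0.61), 243968_x_at of FCRL1 and 224402_s_at of FCRL4 were not. With the 18S signal as a covariate limma called 0 members and 0% of all probe sets, with 13 members at an unadjusted p under 0.05. Under that covariate the difference of 224404_s_at was -4.01, that of 1563674_at -2.68, that of 231093_at -3.65, that of 231647_s_at -5.48 and that of 224406_s_at -1.45. The 18S signal and the shBCL9 group can hardly be told apart in that fit. The part of RNA quality in the member differences was not tested. In bulk samples, fewer cells expressing a gene and less RNA per cell cannot be told apart.

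The comparison of miR-30 with cel-miR-67 asks what the microRNA changes. No Fc receptor-like probe set was called by limma, beside 0.815% of all probe sets, and the differences ran from -0.29 to 0.27. At an unadjusted p under 0.05 there were 6 of 21, beside 12.6% of all probe sets. The groups did not overlap in 6 of the 21 probe sets, beside 18.3% of all probe sets. FCRL5 was close to level between the groups, with 7.65, 7.52 and 7.46 in miR-30 arrays, against 7.63, 7.75 and 7.67 in cel-miR-67 arrays for 224404_s_at (-0.14, 95% interval -0.29 to 0.01). FCRL2 likewise had 7.16, 7.17 and 7.23 in miR-30 arrays, against 7.17, 7.16 and 7.08 in cel-miR-67 arrays for 1563674_at (0.05, 95% interval -0.09 to 0.18).

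FCRLA was lower without overlap in 2 of its 3 probe sets. The levels of 235372_at were 11.81, 11.78 and 11.85 in miR-30 arrays, against 12.05, 12.12 and 12.01 in cel-miR-67 arrays (-0.25, 95% interval -0.41 to -0.08), and those of 235400_at were 11.34, 11.30 and 11.45 in miR-30 arrays, against 11.56, 11.67 and 11.72 in cel-miR-67 arrays (-0.29, 95% interval -0.46 to -0.12). The groups did not overlap in these 2 probe sets, but overlapped in 235401_s_at (-0.27, 95% interval -0.70 to 0.15). None of them was called in the fit of all probe sets. FCRLB had 8.97, 8.89 and 8.98 in miR-30 arrays, against 8.84, 8.88 and 8.87 in cel-miR-67 arrays (0.08, 95% interval -0.08 to 0.25), and FCRL3 differed by 0.10 ± 0.13 (SE) in 231093_at. Below background, 243968_x_at of FCRL1 differed by -0.24 ± 0.08 (SE) and the 3 FCRL4 probe sets by 0.19 ± 0.11 (224401_s_at), 0.21 ± 0.07 (224402_s_at) and 0.27 ± 0.11 (224403_at).

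The difference between the 2 effects was itself fitted, as the miR-30 effect minus the shBCL9 effect. It was called in 14 of the 21 probe sets, all with a positive difference, beside 11.7% of all probe sets (7.25% in that direction), and was called with a size of over 2-fold in 12, beside 1.13% of all. The shBCL9 effect, known when the members were taken, enters this difference with its sign turned. Nothing is therefore read from these counts. It was 3.71 ± 0.10 (SE) for 224404_s_at of FCRL5, 2.42 ± 0.09 for 1563674_at of FCRL2 and 1.42 ± 0.11 for 235400_at of FCRLA. For 231093_at of FCRL3 it was 1.66 ± 0.18, with all groups but shGFP below background. With the 18S signal as a covariate 1 of the 21 was called, 224404_s_at, and with the ACTB covariate 12. The arms differ in delivery and in sorting, so the 2 effects are of treatments given in different ways.

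**Figure D2:**
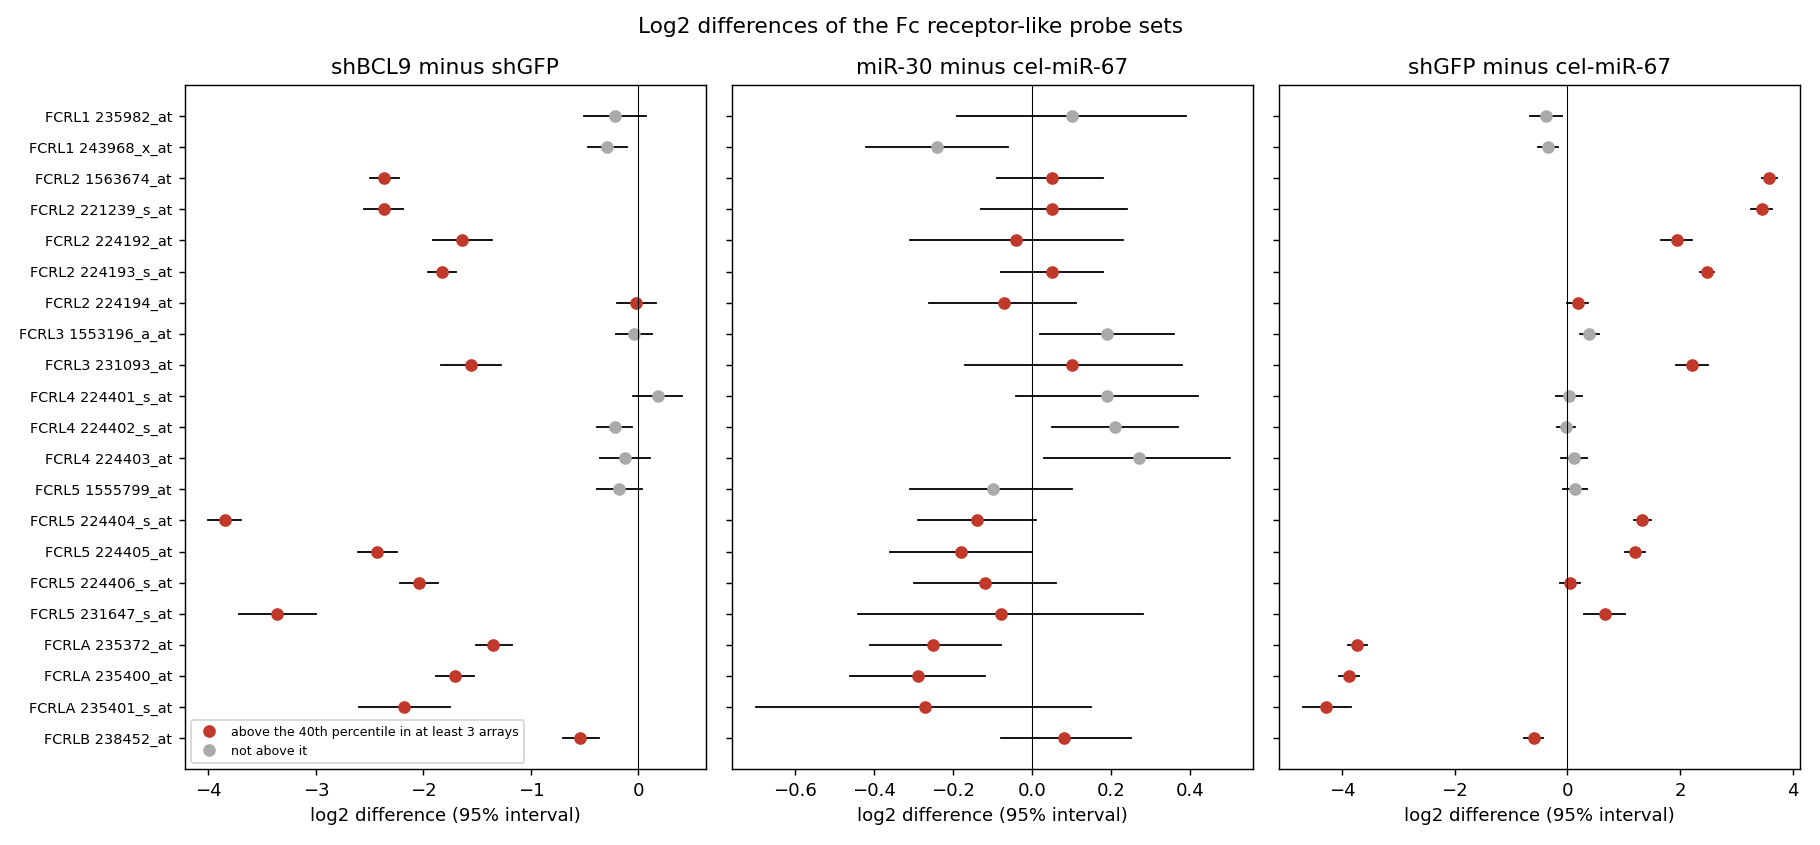
Log2 differences with 95% intervals for each member probe set (red if above background, grey if not), in the hairpin comparison (shBCL9 minus shGFP), the microRNA comparison (miR-30 minus cel-miR-67) and between the controls (shGFP minus cel-miR-67), each panel on a scale of its own. The hairpin differences reach -3.85 in FCRL5, the miR-30 differences stay between -0.29 and 0.27, and between the controls FCRL2 lies above 0 and FCRLA below it.

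The 2 control groups differed for most of the family, in both directions. In shGFP arrays FCRL2 and FCRL3 were higher and FCRLA much lower than in cel-miR-67 arrays, so the family did not move together between the arms. Of the 21 probe sets 15 were called, 9 higher and 6 lower in shGFP, beside 38.2% of all probe sets (19% higher and 19.2% lower). The size was over 2-fold in 10 of the 15, beside 6.08% of all probe sets, and the groups did not overlap in 14 of the 21, beside 47.3%. Infection with sorting and transfection cannot be told apart here. This comparison shares the shGFP arrays with the hairpin comparison and the cel-miR-67 arrays with the miR-30 comparison, so values from them are given side by side only.

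FCRL2 was 12-fold higher in shGFP than in cel-miR-67 arrays in 1563674_at (3.59 ± 0.06, SE). Its 221239_s_at was 10.9-fold higher (3.45 ± 0.09, SE), with 9.75, 9.85 and 9.81 in shGFP arrays, against 6.31, 6.33 and 6.43 in cel-miR-67 arrays. FCRL3 was higher by 2.21 ± 0.13 (SE) in 231093_at, where the cel-miR-67 arrays had 4.26, 4.03 and 4.23, below background. FCRL5 was higher by 1.33 ± 0.07 (SE) in 224404_s_at and by 0.66 ± 0.17 (SE) in 231647_s_at, a value that was 2.91 with the ACTB covariate. Its 224406_s_at had 9.13, 9.10 and 8.95 in shGFP arrays, against 9.0, 9.06 and 8.98 in cel-miR-67 arrays (0.05 ± 0.08, SE), which overlapped. The probe sets of FCRL5 thus disagree on the size of this difference.

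FCRLA went the other way, with 8.40, 8.23 and 8.37 in shGFP arrays, against 12.05, 12.12 and 12.01 in cel-miR-67 arrays for 235372_at. The differences were -3.73 ± 0.08, -3.88 ± 0.08 and -4.28 ± 0.20 (SE) in 235372_at, 235400_at and 235401_s_at, the last being the 9th lowest of all 54613. FCRLB was lower by a smaller amount, with a difference of -0.60 ± 0.08 (SE) in 238452_at. FCRL1 differed by -0.38 ± 0.13 and -0.35 ± 0.08 (SE) in its 2 probe sets, both below background, and the first of these lost its call without shGFP 2, shGFP 3, cel-miR-67 1 or cel-miR-67 2, with differences of -0.40, -0.21, -0.31 and -0.38. Without shGFP 3, 224194_at of FCRL2 was called as well (0.27, against 0.18 with all arrays). The ACTB 3′ to 5′ difference also separated the controls, at 1.30 ± 0.11 in shGFP arrays, against 2.16 ± 0.09 in cel-miR-67 arrays (SD, n = 3 each), and with it as a covariate 10 of the 21 were called, beside 2.89% of all probe sets, without FCRLB (-0.42), 235401_s_at of FCRLA (-2.58) and 3 probe sets below background.

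Ordered by level over the 4 groups, FCRL2 (4 of its 5 probe sets) was highest in shGFP, next in shBCL9 and lowest in the transfected groups, whose arrays overlapped. For 231093_at of FCRL3, shGFP was highest, and the 9 arrays of the other groups lay below background and are not ordered. In 224192_at of FCRL2 the shBCL9 arrays overlapped the transfected ones, which lay below background. FCRL5 was lowest in shBCL9 in 224404_s_at, 224406_s_at and 231647_s_at, with the miR-30 and cel-miR-67 arrays overlapping each other. In 224405_at of FCRL5 shGFP was highest. The other groups lay below background there, but for 1 cel-miR-67 array, and are not ordered. FCRLA was lowest in shBCL9, then shGFP, then miR-30, and highest in cel-miR-67, with miR-30 and cel-miR-67 overlapping in 235401_s_at. Its group means spanned 5.07 in 235372_at and 5.58 in 235400_at on the log2 scale. In 235401_s_at they spanned 6.45, with the shBCL9 mean below background. FCRLB had the same order except that miR-30 lay above cel-miR-67, with no overlap between neighbours and a range of 1.22.

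**Figure D3:**
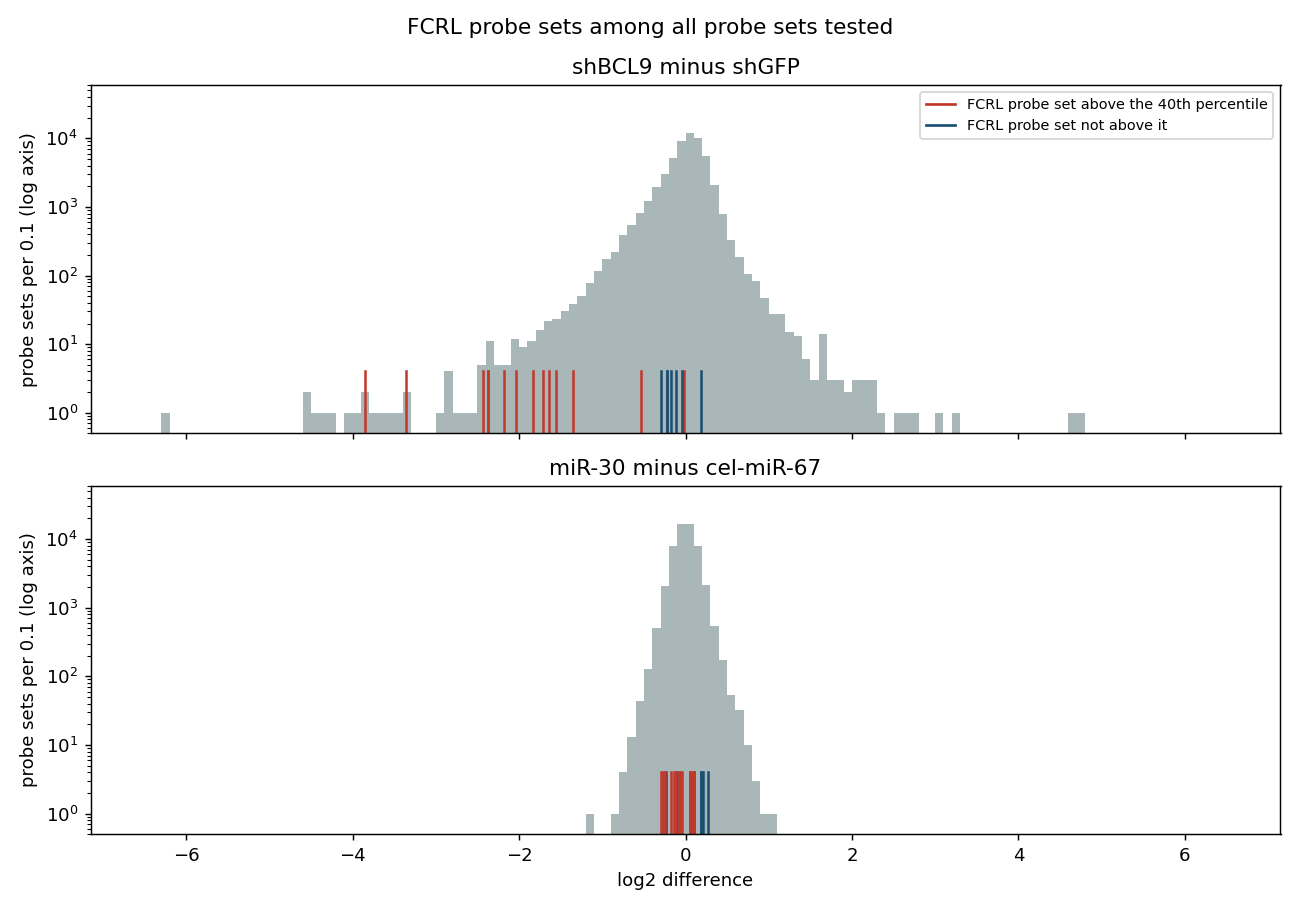
Histograms of the log2 differences of all 54613 probe sets (probe sets per 0.1, log axis) in shBCL9 minus shGFP (top) and miR-30 minus cel-miR-67 (bottom), with a line for each member probe set, red if above background and blue if not. In the top panel 12 members lie below a difference of -1, and in the bottom panel all lie between -0.29 and 0.27.

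The patterns of the members over the 12 arrays were compared with those of other genes by Pearson correlation, given as a description since the points fall into 4 groups. FCRL2 (1563674_at) was most like MT1F, a metallothionein (r = 0.997), SEMA4D, a semaphorin (0.996), and MTRR, methionine synthase reductase (0.994). Its 221239_s_at was most like ZNF827 (0.997), MT1F (0.995) and RGS20 (0.995), its 224192_at like CXXC5 (0.990), MACROD2 (0.985) and RIPOR2 (0.984), its 224193_s_at like RGS20, MACROD2 and MT1F (0.995 each), and its 224194_at like NOL6 (0.943), ADM5 (0.941) and MRTFA (0.938). FCRL3 (231093_at) was most like ZNF827 (r = 0.990), HAGLROS (0.989) and ITGB5 (0.986). It lay above background only in the 3 shGFP arrays, so this likeness rests on that group. A similar limit holds for 224192_at of FCRL2 and 224405_at of FCRL5, above background in 5 and 4 of the 12 arrays. FCRL5 (224404_s_at) was most like HOMER2, a scaffold protein (r = 0.995), PPOX, an enzyme of haem synthesis (0.995), and LGALS8, a galectin (0.993). Its 224405_at was most like RASSF2 (0.987), SLA (0.983) and PAGE1 (0.981), its 224406_s_at like TRBC1 (0.995), INAVA (0.993) and MALAT1 (0.992), and its 231647_s_at like GPR137B (0.992), TMEM132D-AS1 (0.991) and SLC2A12 (0.990). FCRLA (235372_at) was most like MAP1LC3B, an autophagy protein (r = 0.999), TMC6 (0.998) and PPP1R18 (0.998). Its 235400_at was most like MAP3K13, YPEL5 and BEX2 (0.999 each), and its 235401_s_at like ZNF682 (0.999), FRA10AC1 (0.998) and PCMTD1 (0.998). FCRLB (238452_at) was most like PDGFC, a growth factor (0.994), GALNT1 (0.994) and ORMDL1 (0.993).

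Few probe sets of the classical and other Fc receptors were called in shBCL9 cells, and only 12 of the 26 lay above background. The low share called is therefore not read as stability of these receptors. Of 26 probe sets for 14 genes, 0 were called higher and 2 lower, beside 23% of all probe sets, with a median of 0.06 beside 0.04 over all probe sets (2 at an unadjusted p under 0.05). The 2 were FCGR2B, the inhibitory Fc gamma receptor, which lies beside FCRLA (-0.65, limma adjusted p = 6.95e-05), and TRIM21, an intracellular Fc receptor (-0.37, limma adjusted p = 0.0015). In miR-30 arrays 0 of the 26 were called by limma, with 5 at an unadjusted p under 0.05. FCGR2B averaged 5.08 ± 0.17 in shBCL9 arrays, against 5.73 ± 0.07 in shGFP arrays, and 7.83 ± 0.06 in miR-30 arrays, against 8.09 ± 0.04 in cel-miR-67 arrays (SD, n = 3 each). In shGFP against cel-miR-67 arrays it fell by 2.37 (limma adjusted p = 5.4e-11). The probe set 210889_s_at may share sequence with FCGR2C.

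Among B cell receptor and Fc receptor-like signalling partners, 7 of 56 probe sets rose and 9 fell in shBCL9 arrays (28.6%, beside 23% of all probe sets), with a median of 0.03 beside 0.04 over all probe sets. GAB1, a docking protein, fell by 0.76 (limma adjusted p = 3.16e-06), INPP5D, which encodes the phosphatase SHIP1 recruited by ITIM motifs, fell by 0.61 (limma adjusted p = 3.29e-05), and LYN, the kinase that phosphorylates these motifs, rose by 0.55 (limma adjusted p = 1.59e-05). None was called in miR-30 arrays, where 7 had an unadjusted p under 0.05. Of 42 probe sets for immunoglobulin chains and their assembly 4 rose and 0 fell in shBCL9 arrays (9.52%), with a median of 0.08, and 0 were called in miR-30 arrays (4 at an unadjusted p under 0.05). Of these 42, 24 lay above background.

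Of 64 probe sets for B-lineage transcription factors 14 fell and 1 rose in shBCL9 arrays, a share of 23.4% called beside 23% of all probe sets, with a median of -0.06. BACH2, a repressor that acts before plasma cell differentiation, fell by 1.20 (limma adjusted p = 1.34e-07), POU2F2, which encodes the octamer factor OCT2, fell by 0.88 (limma adjusted p = 2.26e-05), and IKZF1, which encodes Ikaros, fell by 0.76 (limma adjusted p = 1.06e-05). In miR-30 arrays 2 probe sets rose, MEF2C by 0.33 (limma adjusted p = 0.0196) and BACH2 by 0.38 (limma adjusted p = 0.0372). Between the controls 23 were higher and 8 lower in shGFP (48.4% called). Of all probe sets 38.2% were called there, 19% higher and 19.2% lower.

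Genes on either side of the 2 blocks are given for comparison. Of 22 probe sets for the 15 measured neighbours of FCRL1 to FCRL5, 4 rose and 1 fell in shBCL9 arrays (22.7%, beside 23% of all probe sets), with a median of 0.12. The one that fell was CD1D, a lipid-presenting molecule (-1.50, limma adjusted p = 7.67e-06), with means of 3.06 in shBCL9 and 4.55 in shGFP arrays that lay below background. Of 38 probe sets for the 18 measured neighbours of FCRLA and FCRLB, 8 rose and 7 fell (39.5%), with a median of 0.04. DDR2, a collagen receptor, rose by 0.82 (limma adjusted p = 6.09e-07). A probe set of SDHC, a subunit of succinate dehydrogenase, fell by 0.58 (limma adjusted p = 6.29e-05), with means of 6.99 in shBCL9 and 7.57 in shGFP arrays. Another SDHC probe set was higher in shBCL9, at 10.6 ± 0.01, against 10.34 ± 0.04 in shGFP arrays (SD). The probe sets of SDHC thus disagree on the direction. No neighbour of either block was called in miR-30 arrays, where 2 of 22 and 4 of 38 had an unadjusted p under 0.05 by limma.

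**Figure D4:**
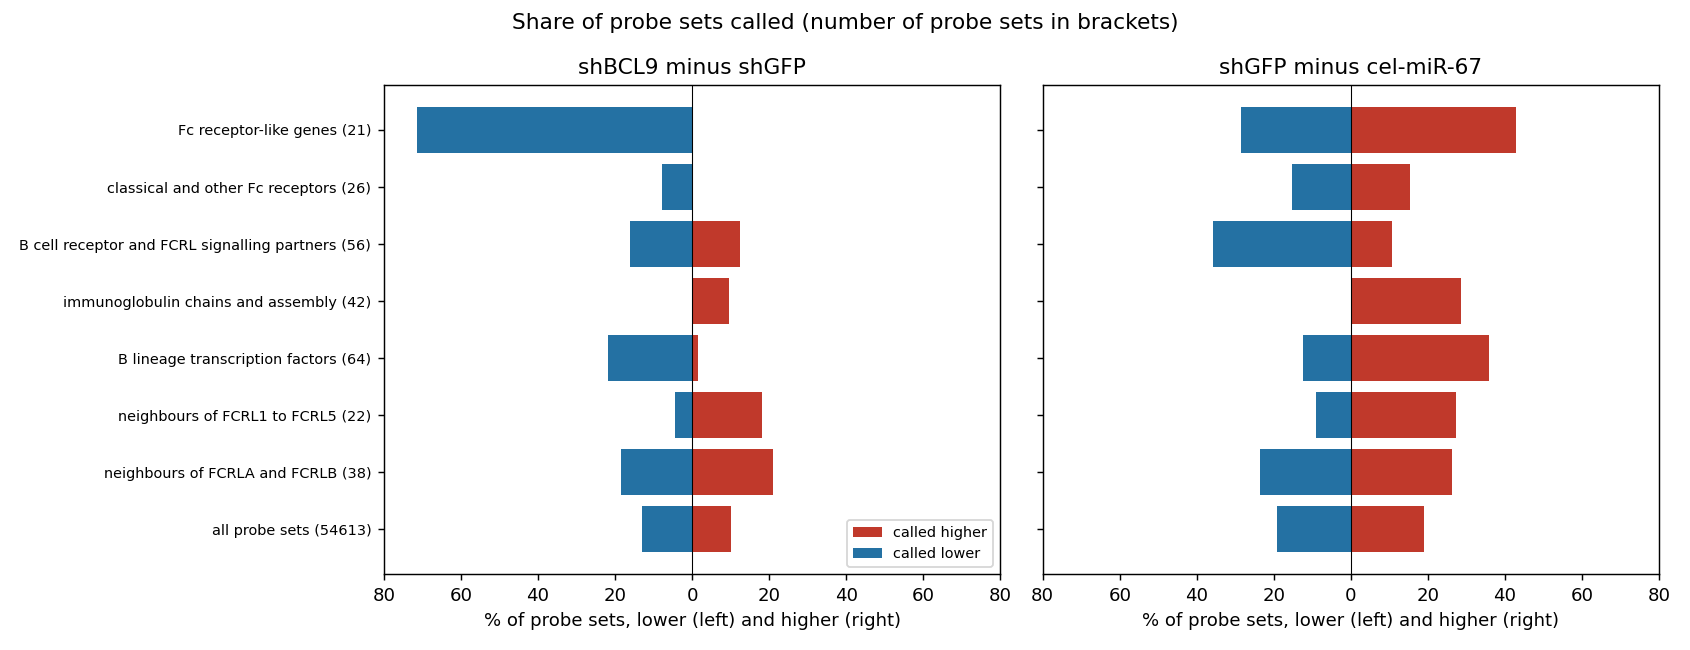
Share of probe sets called by limma (percent), lower to the left in blue and higher to the right in red, in the Fc receptor-like family, the pathway and neighbour lists and all probe sets, for shBCL9 minus shGFP and shGFP minus cel-miR-67. In the hairpin panel the classical and other Fc receptors stand at 7.69%, all lower, and 12.9% of all probe sets are called lower. Of the 26 probe sets of these receptors 12 lay above background.

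Markers of other cell types were set beside these results. Beside the 23% of all probe sets called, 6 of 31 probe sets for B cell markers rose and 3 fell in shBCL9 arrays (29%), and 6 of 21 for plasma cell markers rose and 5 fell (52.4%). Of 14 for T and NK cell markers 0 rose and 2 fell (14.3%), GZMB (-1.34, limma adjusted p = 6.28e-06) and PRF1 (-0.63, limma adjusted p = 0.000494). Of 12 for myeloid markers 0 were called (1 at an unadjusted p under 0.05 by limma), of 8 for erythroid markers 1 rose (12.5%), and of 26 for stromal and epithelial markers 3 rose (11.5%). Among the plasma cell markers SDC1 (CD138) rose by 0.78 (limma adjusted p = 6.06e-07) and CD38 by 0.71 (limma adjusted p = 2.52e-06), while DERL3, a protein of endoplasmic reticulum degradation, fell by 1.01 (limma adjusted p = 2.28e-07). Array means over the T and NK cell list were 4.96 to 5.04 in shBCL9 and 5.07 to 5.19 in shGFP arrays, without overlap. For the B cell list they were 4.56 to 4.63 in shBCL9 and 4.49 to 4.59 in shGFP arrays, which overlapped, as did those of the myeloid list. The means were higher in shBCL9, without overlap, for the stromal and epithelial list (4.32 to 4.37, against 4.14 to 4.26 in shGFP). The same held for the erythroid list (6.06 to 6.14, against 5.95 to 6.02) and the plasma cell list. In miR-30 arrays 1 marker probe set of these lists was called, that of BACH2. The part of other cell types in the member differences was not tested.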

How the data were processed

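RNA of 12 samples was extracted with Trizol, labelled with an Affymetrix 3′ IVT kit and put on arrays, per the labels' protocols. The deposited values are log2 intensities per probe set, summarised by the authors with RMA in affy (versions not stated), per the submitters' processing notes. They were used without further normalization. Precision is limited by the number of arrays, since arrays have no read depth. Groups came from the sample labels. The 62 AFFX control probe sets were left out, and of the 54613 others 41091 had 1 gene symbol in the platform annotation, 1801 had several and 11721 none listed.

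Group means were fitted over all 12 arrays with limma 3.58.1 (lmFit and eBayes, R 4.3.3), with Benjamini-Hochberg adjustment over all 54613 probe sets and a threshold of 0.05. Standard errors and 95% intervals come from that fit. The 4 contrasts were shBCL9 minus shGFP, shGFP minus cel-miR-67, miR-30 minus cel-miR-67, plus the miR-30 effect less the shBCL9 effect. Figures were drawn with matplotlib 3.10.9 in Python 3.11.15.

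The members, the 4 pathway lists, the 6 marker lists and the 2 neighbour lists (10 protein-coding genes on each side of a block in the RefSeq table) were chosen with earlier results of these data known. The naming rule covers all member probe sets, BCL9, up to 3 called genes per list and comparison by adjusted p, and the 3 most similar genes per member probe set above background. Lists are described by counts and medians, with no set test. On simulated shBCL9 and shGFP arrays of 54613 probe sets, the fit recovered 3 of 50 log2 changes of 0.25, 33 of 50 of 0.5, 48 of 50 of 1 and 50 of 50 of 2, with 5 false calls. Alternatives were filters on low levels, further normalization, fewer arrays, array weights, another variance model, a stricter threshold, a replicate block, RNA quality covariates and leaving out each array.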

Additional observations from a re-analysis of the deposited data

How the results depend on the processing

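Counts of called members stayed within 1.5 times of the values reported (15 for shBCL9 minus shGFP, 0 for miR-30 minus cel-miR-67, 14 for the difference of effects and 15 for shGFP minus cel-miR-67) in most alternatives. The exceptions were as follows. In the miR-30 comparison 1 member was called among probe sets above the 60th percentile, 235400_at of FCRLA (-0.29), and 2 with a trended robust variance, 235400_at (-0.29) and 235372_at (-0.25) of FCRLA. With the 18S signal as covariate 0 members were called in shBCL9 minus shGFP (limma; 0 of all probe sets) and 1 in the difference of effects, which was 224404_s_at of FCRL5. The 18S signal separates the shBCL9 arrays from the others, so group and covariate can hardly be told apart in that fit. Most sizes changed under either RNA quality covariate. With the ACTB covariate 36 of the 44 called member differences moved by at least the pooled SD of the replicates. Another 7 stayed within it, 1 turned sign, and 10 of the 44 lost the call. With the 18S covariate 29 moved, 13 stayed, 2 turned sign, and 30 of the 44 lost the call. The signs that turned were in FCRL1 and FCRL4, below background. Differences not called, including all of the miR-30 comparison, were not followed in this way. The value of 243968_x_at of FCRL1 was 0.00032 in shGFP minus cel-miR-67 with the ACTB covariate. That of 224402_s_at of FCRL4 was 0.42 in shBCL9 minus shGFP and -0.10 in the difference of effects with the 18S covariate. The cause was not tested. With the ACTB covariate 231647_s_at of FCRL5 was 2.91 in shGFP minus cel-miR-67, against 0.66 without it, and 224192_at of FCRL2 was 3.19, against 1.95. Calls of FCRLB were lost with it in all 3 comparisons that had one, those of 224402_s_at of FCRL4 and 243968_x_at of FCRL1 wherever they had one, and those of 235401_s_at of FCRLA, 235982_at of FCRL1 and 1553196_a_at of FCRL3 between the controls. Leaving out each array in turn gave 13 to 15, 0, 14 and 14 to 15 called members in the 4 comparisons (limma). The replicate block gave 15, 0, 14 and 15. Deviations of same-numbered arrays correlated at -0.151 to 0.19 over all groups, and at 0.034 to 0.19 within an arm, where a pairing could lie. These values were small, so the numbers were not taken to pair the samples. Yet 11 of 12 arrays correlated best with their own number in the other group of the arm, a hint from the data and not from the design. Array number limits the detection of small changes, but how far was not tested. In the self-test changes of 0.25 were mostly missed. It planted changes in far fewer probe sets than were called in shBCL9 minus shGFP, and it did not vary the number of arrays. It therefore does not give the power of these comparisons. Signal over background also limits the weak probe sets, which the self-test did not examine.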
